A study of Homo sapiens with 6 samples.

Results

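The set described here holds 43 genes of the antiviral interferon response: transcription factors, sensors of foreign RNA, and effectors that block viral entry, replication or translation. The genes were taken by symbol from a fixed list of 44 names, in which RIGI and DDX58 are the same gene (listed in the count table as DDX58). They were examined among 35322 gene symbols, of which 16510 had enough reads to be tested. Of the 43 genes, 39 were tested, and IRF9, OAS2, TRIM22 and XAF1 had too few reads. RNA-seq was performed on 22Rv1, an established human prostate carcinoma cell line, with 2 libraries in each of 3 groups. The control cells were labelled WT, and ZM11-kd1 and ZM11-kd2 were labelled as knockdowns of ZMYND11, a chromatin reader of histone H3.3 trimethylated on lysine 36. The cells of all 3 groups received no treatment and were grown in RPMI1640 with fetal bovine serum. The study describes its sequenced 22Rv1 cells as carrying a stable short hairpin RNA, aimed at ZMYND11 or a control, while the labels name no construct for the control, and which hairpin made ZM11-kd1 and which ZM11-kd2 is not given in the sources used here. The sources also do not say that the libraries of a group came from separate cultures, so that the p-values measure the spread between these libraries, which may be technical.

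Total counts ranged from 26844128 to 38193748 per library, and each of the 6 libraries correlated best with the other library of its own group (r = 0.992 to 0.993 across genes). The spread within a group was not equal. Against counting error alone, the chi-square per degree of freedom was 2.3 in control, 3.8 in ZM11-kd1 and 10.1 in ZM11-kd2. The fit used a common spread per gene for the 3 groups. ZMYND11 itself was measured at 141 and 135 in control in normalised CPM, which are read counts scaled to a common library size, at 27.7 and 26.1 in ZM11-kd1 and at 21.6 and 22.7 in ZM11-kd2, so that the control libraries lay above all 4 knockdown libraries. ZMYND11 was 5.11-fold lower in ZM11-kd1 and 6.22-fold lower in ZM11-kd2 than in control. All 10 prostate epithelial markers had at least 10 reads in every library, with summed levels of 2851 to 4106 CPM.

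Type I and type III interferons bind receptors that act through JAK kinases, and a factor that contains STAT2 and IRF9 then binds the interferon-stimulated response element in the promoters of target genes. RIG-I and MDA5 (encoded by IFIH1) recognise viral or misplaced cellular double-stranded RNA and signal through MAVS to IRF3 and IRF7, which switch on interferon genes and many of the same targets directly. Many of the effectors are also kept at a low tonic level in epithelial cells without infection.

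The 43 genes did not move as a block (the heat map by library). A gene was called when its edgeR quasi-likelihood test had a Benjamini-Hochberg adjusted p under 0.05 over all 16510 genes. In ZM11-kd1 against control, 15 of the 39 tested genes (38.5%) were called higher, where 38.2% of all genes were, and 13 (33.3%) were called lower, where 39.8% of all genes were. In ZM11-kd2 against control, 8 of 39 (20.5%) were higher against a background of 36.5%, and 19 (48.7%) were lower against 36.9%. When a trend with GC content and gene length was removed in each library (the GC and length correction), 20 were higher and 9 lower in ZM11-kd1, beside 39.6% and 37.6% of all genes, and 10 were higher and 15 lower in ZM11-kd2, beside 39.0% and 35.4%. With a log2 fold change of at least 1 also required, 13 genes were higher in ZM11-kd1 (background 19.1%) and 7 were lower (background 22.9%), while 4 were higher in ZM11-kd2 (background 12.7%) and 10 were lower (background 19.2%). The libraries of the groups did not overlap for 35 of the 39 genes in ZM11-kd1 against control, beside 89.7% of all genes, and for 35 in ZM11-kd2 against control, beside 86.3%. The median log2 fold change of the 39 genes was 0.43 in ZM11-kd1 and -0.36 in ZM11-kd2, where the medians over all genes were -0.03 in both. The size of these medians varied with the setting. In ZM11-kd1 it was 0.26 without control replicate 2, 0.23 without ZM11-kd1 replicate 1, 0.23 over the 31 genes with at least 10 reads in every library, and 0.08 with total counts alone, where the median over all genes was -0.38. In ZM11-kd2 it was -0.10 with the GC and length correction. Both comparisons share the control libraries. In RNA from whole cultures, fewer cells that express a gene and less RNA per cell cannot be told apart.

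**Figure D1:**
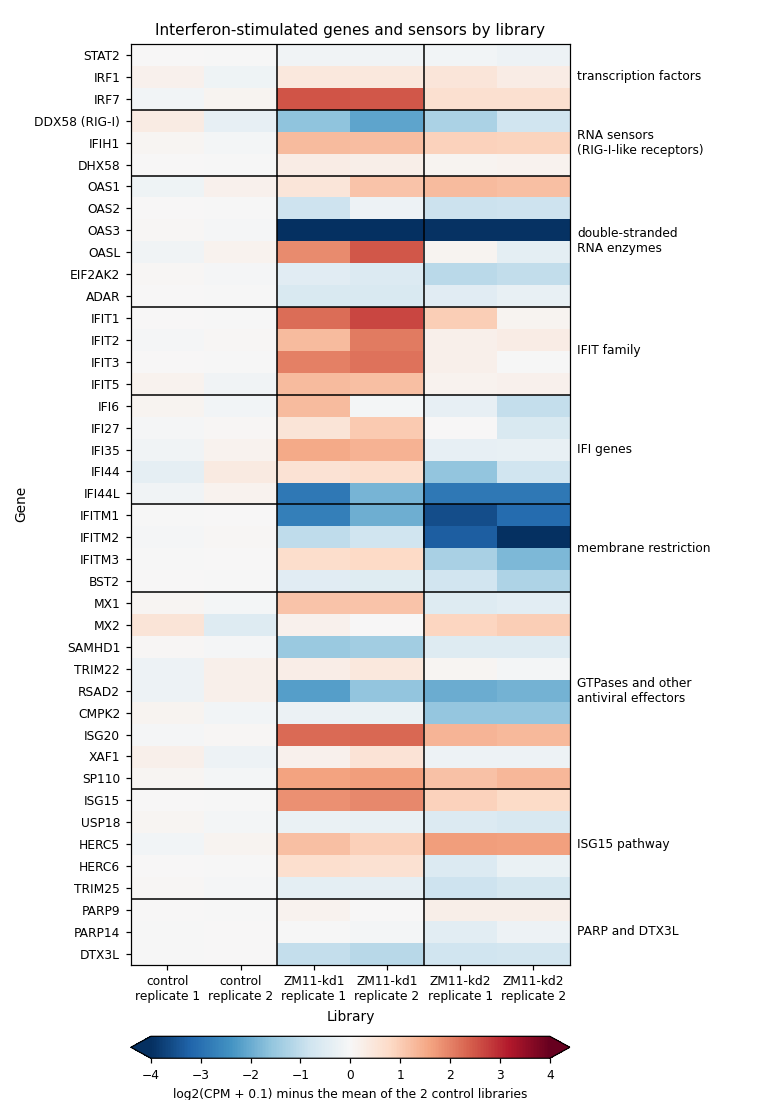
Heat map of 42 genes (rows, grouped by role) in the 6 libraries (columns), as log2(CPM + 0.1) minus the mean of the 2 control libraries; IRF9, listed at 0 in every library, is left out, and values past -4 or 4, which are those of OAS3 in ZM11-kd1 and of IFITM2 in ZM11-kd2 replicate 2, take the end colour. IRF7, ISG20, OASL, IFIT1 and IFIT3 are the deepest red in both ZM11-kd1 libraries, the IFITM genes are blue in ZM11-kd2, and OAS3 is blue in all 4 knockdown libraries.

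The sequence bound by the factor that contains STAT2 and IRF9 was looked for as 2 strings, GAAA, any 2 bases and GAAA, and the same with a C added at its end, on both strands of the RefSeq promoters (GRCh38.p14, 250 bases before to 50 bases after each gene start). The shorter string lay in 3.57% of 35116 promoters and 4.38% of 27305 genes, and the longer, which is contained in the count of the shorter, in 0.795% of promoters and 0.952% of genes. Of the 34 genes of the set with a promoter in that table, 21 (61.8%) held the shorter string and 18 (52.9%) the longer. The windows below are shown because genes that hold the string moved in different ways: ISG15, ISG20, IFIH1 and HERC5 were called higher in both knockdowns, IFIT1, IFIT3 and IFIT5 in ZM11-kd1, and IFITM1, OAS3 and BST2 were called lower in both. IFITM3 was called higher in ZM11-kd1 and lower in ZM11-kd2. Each is 29 bases of the gene's own strand, read 5′ to 3′, and the capitals mark the longer string or, where it lies on the other strand, its reverse complement. A match is a description of the letters and not a site of binding.
ISG15 (chr1:1013375-1013403, + strand): atgcctcggGAAAGGGAAACcgaaactga
ISG20 (chr15:88638938-88638966, + strand): aacaaactaGAAACTGAAACagggtcggg
IFIH1 (chr2:162318686-162318714, - strand): aagagaatcGAAACAGAAACcaaagtcag
HERC5 (chr4:88457035-88457063, + strand): aaacattatGTTTCGTTTTCcactggagc
IFIT1 (chr10:89392497-89392525, + strand): ctagctttaGTTTCACTTTCccctttcgg
IFIT3 (chr10:89332468-89332496, + strand): gttccatcaGTTTCACTTTCctttcccct
IFIT5 (chr10:89414513-89414541, + strand): ttctattaaGTTTCGGTTTCtgaagctta
IFITM1 (chr11:313991-314019, + strand): aaacagcagGAAATAGAAACttaagagaa
IFITM3 (chr11:320893-320921, - strand): aaatgccagGAAAAGGAAACtgttgagaa
OAS3 (chr12:112938445-112938473, + strand): ttcggagagccgggcggGAAAACGAAACc
BST2 (chr19:17405741-17405769, - strand): cctttctggGAAACTGAAACtgaaaacct

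Of the 18 genes with the longer string, 9 (50%) were called higher and 5 (27.8%) lower in ZM11-kd1, where 38.2% and 39.8% of all genes were, and 5 (27.8%) were called higher and 8 (44.4%) lower in ZM11-kd2, where 36.5% and 36.9% of all genes were. Of the 14 tested genes whose promoter lacked it, 3 (21.4%) were higher and 6 (42.9%) lower in ZM11-kd1, and 2 (14.3%) were higher and 9 (64.3%) lower in ZM11-kd2. The median log2 fold change of the 18 genes was 0.90 in ZM11-kd1 and -0.42 in ZM11-kd2, and that of the 14 genes was -0.20 and -0.38. PARP9 and DTX3L, which start next to each other on opposite strands, hold the longer string through the same bases, so that this match is counted for both. These counts are a description of the set, and the difference between the 18 and the 14 genes was not tested.

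Among the transcription factors, IRF7 rose in both knockdowns and far more in ZM11-kd1. IRF7, the factor that amplifies interferon gene transcription, was measured at 3.52 and 4.12 CPM in control, 22.1 and 21.7 in ZM11-kd1 and 5.93 and 5.96 in ZM11-kd2. The 3 groups did not overlap, and ZM11-kd1 was the highest. IRF7 was 5.72-fold higher in ZM11-kd1 (log2 fold change 2.52 ± 0.12, SE, edgeR adjusted p = 1.32e-10) and 1.55-fold higher in ZM11-kd2 (0.64 ± 0.14, adjusted p = 0.000787), and ZM11-kd2 was 3.68-fold below ZM11-kd1 (-1.88 ± 0.12, adjusted p = 3.2e-09). With the GC and length correction, the log2 fold changes became 1.52 in ZM11-kd1 and -0.998 between the knockdowns, both still called.

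STAT2, the subunit that carries the activation domain of the interferon-activated factor, was measured at 45.0 and 44.3 CPM in control, 40.6 and 40.5 in ZM11-kd1 and 41.1 and 38.6 in ZM11-kd2. Its control libraries lay above the others by a small margin, with log2 fold changes of -0.14 ± 0.07 in ZM11-kd1 (edgeR adjusted p = 0.073) and -0.16 ± 0.07 in ZM11-kd2 (adjusted p = 0.0413), and with the GC and length correction they became 0.22 (adjusted p = 0.00851) and 0.05. In ZM11-kd1 it was called lower with total counts alone (-0.49, adjusted p = 1.03e-05), with at least 10 reads required in every library (-0.18, adjusted p = 0.0215) and with the 2 groups fitted alone (-0.14, adjusted p = 0.0347). The call in ZM11-kd2 was also lost without any 1 of 5 libraries, ZM11-kd2 replicate 1 excepted. IRF1, the founding member of the interferon regulatory factors, had 57 to 106 reads per library, with log2 fold changes of 0.43 ± 0.23 (adjusted p = 0.0974) in ZM11-kd1 and 0.41 ± 0.23 (adjusted p = 0.118) in ZM11-kd2, and with the GC and length correction it was called higher in both (0.86, adjusted p = 0.00315, and 0.74, adjusted p = 0.00908). IRF9, the DNA-binding subunit of the factor, was listed at 0 in every library. Of the exon bases of IRF9, 23.9% are shared on the same strand with another annotated gene (ENSG00000259529), which the count table does not list, and the part of this overlap in the zeros was not tested.

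The 3 cytoplasmic RNA sensors of the RIG-I family differed from each other. IFIH1, which encodes the long double-stranded RNA sensor MDA5, was measured at 8.84 and 7.92 CPM in control, 20.2 and 19.8 in ZM11-kd1 and 16.0 and 15.5 in ZM11-kd2. Its groups did not overlap, and it was 2.39-fold higher in ZM11-kd1 (log2 fold change 1.26 ± 0.10, edgeR adjusted p = 3.79e-08) and 1.88-fold higher in ZM11-kd2 (0.91 ± 0.10, adjusted p = 1.94e-06). ZM11-kd2 was 1.27-fold below ZM11-kd1 for this sensor (-0.35 ± 0.10, adjusted p = 0.00538), a call that was lost with total counts alone (-0.16, adjusted p = 0.163). With the GC and length correction this difference became -0.54 (adjusted p = 0.000102).

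DHX58, which encodes the regulatory receptor LGP2, was measured at 5.82 and 5.70 CPM in control, 7.15 and 6.76 in ZM11-kd1 and 6.27 and 6.36 in ZM11-kd2. It was called in no comparison (edgeR adjusted p = 0.0863, 0.399 and 0.375), and its difference from control turned negative when libraries were scaled by total counts alone. DDX58, which encodes RIG-I, had 19 and 11 reads in control, 3 and 1 in ZM11-kd1, and 5 and 8 in ZM11-kd2. It was called lower in ZM11-kd1 (-2.89 ± 0.79, adjusted p = 0.00402), a call that was lost without control replicate 1, and not in ZM11-kd2 (-1.38 ± 0.63, adjusted p = 0.0638). In ZM11-kd2 DDX58 was called lower with total counts alone (-1.54, adjusted p = 0.0407) and with the 2 groups fitted alone (-1.39, adjusted p = 0.0464). Its level is uncertain, because 88.0% of the 100-base words of its longest transcript also occur in transcripts of ENSG00000288684, a gene on the same strand that the count table does not list.

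Of the enzymes that act on double-stranded RNA, OAS3 had the largest fall in both knockdowns. The OAS genes encode synthetases that make 2′-5′ oligoadenylate, the activator of RNase L. OAS3 (chr12:112938051-112976460) was measured at 27.8 and 25.9 CPM in control, 1.00 and 1.52 in ZM11-kd1 and 1.65 and 1.64 in ZM11-kd2. The control libraries lay far above all 4 knockdown libraries, and OAS3 was 21.5-fold lower in ZM11-kd1 (log2 fold change -4.43 ± 0.16, edgeR adjusted p = 7.21e-12) and 16.3-fold lower in ZM11-kd2 (-4.03 ± 0.15, adjusted p = 1.77e-11). The difference between the knockdowns was 0.40 ± 0.23 (adjusted p = 0.137), and 0.58 (adjusted p = 0.0336) with total counts alone. Without ZM11-kd1 replicate 2 this difference was 0.72.

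Of the neighbouring OAS genes, OAS1 was not called lower in either knockdown, and OAS2 had too few reads to be tested. OAS1 (chr12:112905856-112933219) had 4 and 6 reads in control, 9 and 14 in ZM11-kd1, and 19 and 17 in ZM11-kd2, and was called higher in ZM11-kd2 (1.64 ± 0.61, edgeR adjusted p = 0.0261), a call that was lost without either control library and without either ZM11-kd2 library. In ZM11-kd1 it was called higher with the GC and length correction (1.82, adjusted p = 0.0194) and not without it. OAS2 (chr12:112978395-113011723) had 4 and 4 reads in control, 1 and 3 in ZM11-kd1, and 1 and 1 in ZM11-kd2. Its control libraries lay above the others, as those of OAS3 did, and over the group it was 4.55-fold lower in ZM11-kd2 than in control, with a 95% exact interval of the ratio of 0.91 to 44 (counting error only) that includes no difference.

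OASL, an OAS-like protein that lacks synthetase activity and enhances RIG-I signalling, was measured at 0.197 and 0.258 CPM in control, 1.12 and 1.72 in ZM11-kd1 and 0.252 and 0.146 in ZM11-kd2. The ZM11-kd1 libraries lay above the other 4, and the control and ZM11-kd2 libraries overlapped. OASL was 6.12-fold higher in ZM11-kd1 than in control (2.61 ± 0.51, edgeR adjusted p = 0.000286) and 6.96-fold lower in ZM11-kd2 than in ZM11-kd1 (-2.80 ± 0.51, adjusted p = 0.000193), on 5 to 51 reads per library.

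EIF2AK2 encodes PKR, the kinase that halts translation on double-stranded RNA, and ADAR encodes the adenosine deaminase that edits such RNA. EIF2AK2 was measured at 58.5 and 54.3 CPM in control, 41.4 and 38.8 in ZM11-kd1 and 26.6 and 28.5 in ZM11-kd2, a 2.05-fold fall in ZM11-kd2 (edgeR adjusted p = 1.13e-08) and a 1.41-fold fall in ZM11-kd1 (adjusted p = 2.04e-05). The groups did not overlap, but in ZM11-kd1 the GC and length correction turned the log2 fold change from -0.49 to 0.17 (adjusted p = 0.0226). ADAR was measured at 394 and 388 CPM in control, 256 and 257 in ZM11-kd1 and 285 and 321 in ZM11-kd2, and was called lower in both knockdowns (log2 fold changes of -0.60 and -0.37), calls that were lost with that correction (adjusted p = 0.0883 and 0.27).

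All 4 IFIT genes rose in ZM11-kd1, where 38.2% of all genes did, and none of them was called in ZM11-kd2, where 36.5% of all genes were called higher and 36.9% lower. These genes lie together on chromosome 10 (from IFIT2 at chr10:89283694-89309271 to IFIT5 at chr10:89414568-89421605) and encode tetratricopeptide repeat proteins, of which IFIT1 binds RNA that lacks methylation of its cap. IFIT1 was measured at 0.296 and 0.290 CPM in control, 1.77 and 2.40 in ZM11-kd1 and 0.672 and 0.321 in ZM11-kd2. IFIT3 was measured at 0.329 and 0.322 CPM in control, 1.62 and 1.82 in ZM11-kd1 and 0.392 and 0.321 in ZM11-kd2. In both genes the ZM11-kd1 libraries were the highest. Both ZM11-kd2 libraries lay above control for IFIT1, replicate 1 by the wider margin, while for IFIT3 they overlapped with control.

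IFIT1 was 7.01-fold higher in ZM11-kd1 (log2 fold change 2.81 ± 0.44, edgeR adjusted p = 4.03e-05) and IFIT3 was 5.24-fold higher (2.39 ± 0.41, adjusted p = 8.61e-05). IFIT2, whose product promotes cell death and restricts viral replication, was measured at 0.920 and 0.966 CPM in control, 2.38 and 4.29 in ZM11-kd1 and 1.09 and 1.17 in ZM11-kd2, a 3.50-fold rise in ZM11-kd1 (adjusted p = 0.000127). IFIT5, the most abundant of the 4 per kilobase of exon, was measured at 8.54 and 6.96 CPM in control, 18.5 and 17.8 in ZM11-kd1 and 8.48 and 8.61 in ZM11-kd2, a 2.34-fold rise in ZM11-kd1 (adjusted p = 2.55e-07). Between the knockdowns the 4 genes were lower in ZM11-kd2 by 4.14-fold (IFIT1), 2.93-fold (IFIT2), 4.77-fold (IFIT3) and 2.12-fold (IFIT5), with adjusted p-values of 0.000339, 0.000416, 0.000133 and 1.19e-06. Against control, ZM11-kd2 had log2 fold changes of 0.76 ± 0.53, 0.26 ± 0.36, 0.13 ± 0.50 and 0.14 ± 0.13 for the 4 genes, and those of IFIT3 and IFIT5 turned negative when libraries were scaled by total counts alone. The rise of IFIT1 in ZM11-kd1 could not be tested with a filter of at least 10 reads in every library.

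**Figure D2:**
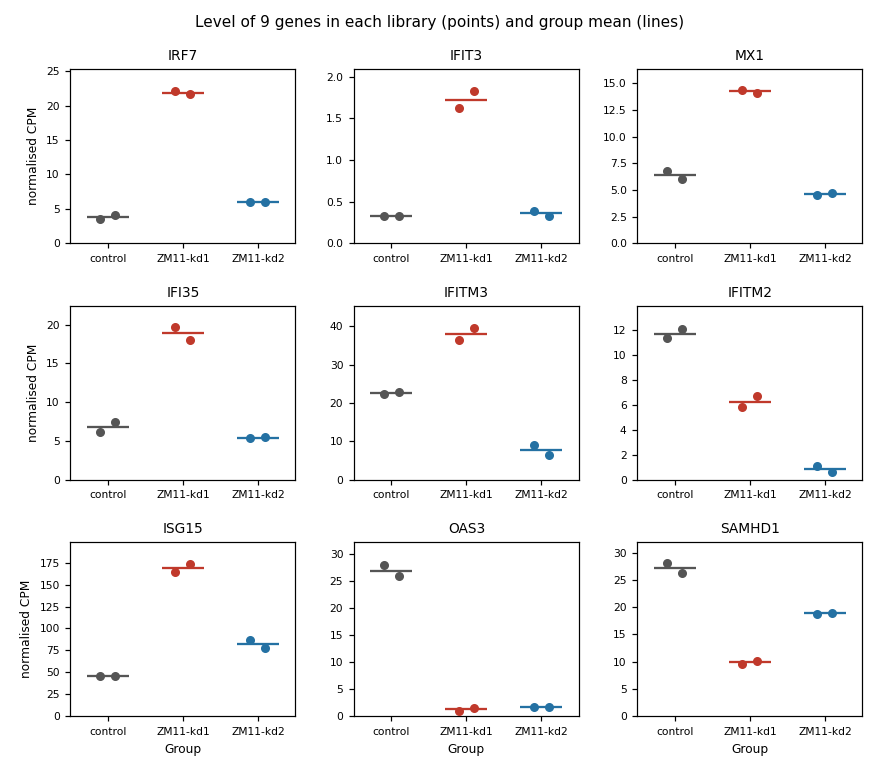
Normalised CPM (vertical axes, each starting at 0) of 9 genes in the 2 libraries of each group (points) with the group mean (lines). IRF7 and IFIT3 are highest in ZM11-kd1, with IRF7 also above control in ZM11-kd2, MX1, IFI35 and IFITM3 lie above control in ZM11-kd1 and below it in ZM11-kd2, and OAS3 lies at 1.00 to 1.65 CPM in all 4 knockdown libraries.

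Of the 5 IFI genes, which have little in common beyond their induction by interferon, 4 were called lower in ZM11-kd2 than in ZM11-kd1, beside 33.8% of all genes, but the calls of IFI6, IFI27 and IFI44 were each lost when 1 library was left out. IFI35, which forms a complex with the interferon-induced protein NMI, was measured at 6.15 and 7.44 CPM in control, 19.7 and 18.1 in ZM11-kd1 and 5.35 and 5.52 in ZM11-kd2. The groups did not overlap, with ZM11-kd1 highest and ZM11-kd2 lowest. IFI35 was 2.78-fold higher in ZM11-kd1 (log2 fold change 1.48 ± 0.12, edgeR adjusted p = 4.81e-08), 1.25-fold lower in ZM11-kd2 (-0.32 ± 0.14, adjusted p = 0.0471) and 3.48-fold lower in ZM11-kd2 than in ZM11-kd1 (-1.80 ± 0.13, adjusted p = 1.22e-08). The fall in ZM11-kd2 was lost without control replicate 2 and without any of the 4 knockdown libraries, and the rise in ZM11-kd1 became 0.67 on the log2 scale with the GC and length correction.

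IFI6, a mitochondrial and endoplasmic reticulum protein that blocks flavivirus replication, depended on 1 library. It was measured at 1.22 and 1.03 CPM in control, 2.83 and 1.05 in ZM11-kd1 and 0.868 and 0.525 in ZM11-kd2, so that the libraries of ZM11-kd1 lay far apart and overlapped with control. The difference of -1.48 ± 0.44 between ZM11-kd2 and ZM11-kd1 (edgeR adjusted p = 0.00848) became -0.58 (adjusted p = 0.312) without ZM11-kd1 replicate 1 and -0.91 (adjusted p = 0.08) with the GC and length correction. IFI27 had 5 to 20 reads per library and differed between the knockdowns by -1.36 ± 0.58 (adjusted p = 0.0495), a call that was lost without any 1 of the 6 libraries.

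IFI44 had 6 and 12 reads in control, 16 and 15 in ZM11-kd1, and 1 and 4 in ZM11-kd2. It was called lower in ZM11-kd2 than in control (-1.97 ± 0.82, edgeR adjusted p = 0.0427) and than in ZM11-kd1 (-2.71 ± 0.75, adjusted p = 0.00541), the first of which was lost without 5 of the 6 libraries in turn, ZM11-kd2 replicate 2 excepted, and the second without ZM11-kd2 replicate 1 (-2.04, adjusted p = 0.0707). Its paralog IFI44L had 17 and 22 reads in control, 0 and 3 in ZM11-kd1 and none in ZM11-kd2. Over the group it was at least 14.8-fold lower in ZM11-kd2 than in control, set against a floor of 3 reads over the group, and 13.4-fold lower in ZM11-kd1 (95% exact interval of the ratio 4.27 to 68.0, counting error only).

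All 4 membrane restriction genes fell in ZM11-kd2, where 36.9% of all genes did, and in ZM11-kd1 IFITM3 rose and the other 3 fell, beside 38.2% and 39.8% of all genes. The IFITM proteins sit in cell and endosomal membranes and hinder fusion of enveloped viruses, and BST2 encodes tetherin, which holds budding virus at the cell surface. IFITM2 (chr11:303655-309397) was measured at 11.3 and 12.1 CPM in control, 5.80 and 6.69 in ZM11-kd1 and 1.09 and 0.613 in ZM11-kd2. IFITM3 (chr11:319676-329475) was measured at 22.3 and 22.9 CPM in control, 36.6 and 39.6 in ZM11-kd1 and 9.13 and 6.36 in ZM11-kd2. Neither gene had groups that overlapped, and ZM11-kd2 was the lowest group for both.

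IFITM2 was 13.6-fold lower in ZM11-kd2 than in control (log2 fold change -3.77 ± 0.21, edgeR adjusted p = 8.77e-10), 1.88-fold lower in ZM11-kd1 (-0.91 ± 0.16, adjusted p = 0.00012) and 7.25-fold lower in ZM11-kd2 than in ZM11-kd1 (-2.86 ± 0.23, adjusted p = 4.17e-08). IFITM3 was 2.91-fold lower in ZM11-kd2 than in control (-1.54 ± 0.13, adjusted p = 6.37e-08), 1.69-fold higher in ZM11-kd1 (0.75 ± 0.11, adjusted p = 2.56e-05) and 4.91-fold lower in ZM11-kd2 than in ZM11-kd1 (-2.29 ± 0.12, adjusted p = 1e-09). With the GC and length correction the rise of IFITM3 in ZM11-kd1 was no longer called (0.15, adjusted p = 0.181), and the fall of IFITM2 there became larger (-1.71).

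IFITM1 (chr11:310041-315272) had 52 and 55 reads in control, 6 and 11 in ZM11-kd1 and 2 and 4 in ZM11-kd2, a 6.39-fold fall in ZM11-kd1 (log2 fold change -2.68 ± 0.47, edgeR adjusted p = 0.000114) and a fall of -4.28 ± 0.56 on the log2 scale in ZM11-kd2 (adjusted p = 7.58e-06). Both folds rest on 2 to 11 reads per knockdown library, so that their size is uncertain. Of the 100-base words of the longest transcript, 34.0% for IFITM1, 2.09% for IFITM2 and 6.24% for IFITM3 also occur in transcripts of other genes. All 3 genes share words with ENSG00000288681, which the count table does not list. IFITM1 and IFITM3 also share words with each other, and IFITM2 shares none with either. The part of this sharing in the counts was not tested. BST2 was measured at 3.94 and 3.86 CPM in control, 2.83 and 2.74 in ZM11-kd1 and 2.24 and 1.61 in ZM11-kd2, a 2.03-fold fall in ZM11-kd2 (adjusted p = 0.000763). Its fall in ZM11-kd1 (-0.49 ± 0.21, adjusted p = 0.0484) was lost without either control library and without either ZM11-kd1 library, and became -1.27 (adjusted p = 4.09e-05) with the GC and length correction.

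Among the dynamin-like GTPases and other effectors, ISG20 and SP110 rose in both knockdowns, and RSAD2 and SAMHD1 fell in both. MX1 rose in ZM11-kd1 and fell in ZM11-kd2, and CMPK2 was called lower in ZM11-kd2 and not in ZM11-kd1. Of the 7 tested, 4 were called lower and 1 higher in ZM11-kd2 than in ZM11-kd1, beside 33.8% and 34.9% of all genes. MX1, the GTPase that traps influenza ribonucleoproteins, was measured at 6.80 and 5.99 CPM in control, 14.3 and 14.1 in ZM11-kd1 and 4.48 and 4.70 in ZM11-kd2. Its groups did not overlap, and it was 2.23-fold higher in ZM11-kd1 (log2 fold change 1.15 ± 0.13, edgeR adjusted p = 8.25e-07), 1.39-fold lower in ZM11-kd2 (-0.48 ± 0.14, adjusted p = 0.00625) and 3.10-fold lower in ZM11-kd2 than in ZM11-kd1 (-1.63 ± 0.13, adjusted p = 4.28e-08). The fall of MX1 in ZM11-kd2 was lost without control replicate 1 and with the GC and length correction (-0.10, adjusted p = 0.525), under which the rise in ZM11-kd1 became 1.89. MX2, its neighbour on chromosome 21, had 12 to 44 reads per library and was called in no comparison, but with the GC and length correction it was called higher in ZM11-kd2 than in control (1.28, adjusted p = 0.011), and with total counts alone higher in ZM11-kd2 than in ZM11-kd1 (1.09, adjusted p = 0.0289).

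ISG20, an exonuclease that degrades single-stranded RNA, was measured at 34.5 and 36.2 CPM in control, 171 and 173 in ZM11-kd1 and 91.4 and 87.5 in ZM11-kd2, 4.86-fold higher in ZM11-kd1 (edgeR adjusted p = 2.45e-13) and 2.53-fold higher in ZM11-kd2 (adjusted p = 7.33e-11). SP110, a nuclear body protein, was measured at 6.01 and 5.38 CPM in control, 17.7 and 18.4 in ZM11-kd1 and 12.9 and 14.4 in ZM11-kd2. For both genes the 3 groups stood apart, with ZM11-kd2 between control and ZM11-kd1.

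RSAD2 (viperin, which makes a chain-terminating nucleotide) and CMPK2 (a mitochondrial nucleotide kinase) lie head to head on chromosome 2 with 351 shared exon bases on opposite strands. RSAD2 was measured at 3.09 and 4.22 CPM in control, 0.706 and 1.15 in ZM11-kd1 and 0.840 and 0.905 in ZM11-kd2, a fall of 3.97-fold (edgeR adjusted p = 2.57e-05) and 4.18-fold (adjusted p = 1.96e-05). CMPK2 was measured at 5.00 and 4.35 CPM in control, 3.92 and 3.88 in ZM11-kd1 and 1.54 and 1.52 in ZM11-kd2, with log2 fold changes of -0.26 ± 0.18 (adjusted p = 0.201) in ZM11-kd1, -1.61 ± 0.20 (adjusted p = 4.69e-06) in ZM11-kd2 and -1.35 ± 0.20 (adjusted p = 3.67e-05) between them. With total counts alone CMPK2 was also called lower in ZM11-kd1 (-0.61, adjusted p = 0.00638). Whether the neighbours differed from each other in ZM11-kd1 was not tested. Whether the counting used strand is not given in the sources used here, so that reads in the shared bases cannot be assigned.

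SAMHD1, which hydrolyses deoxynucleotides, was measured at 28.1 and 26.3 CPM in control, 9.57 and 10.2 in ZM11-kd1 and 18.8 and 18.95 in ZM11-kd2. It was lowest in ZM11-kd1, at 2.75-fold below control (edgeR adjusted p = 2.35e-09), and 1.91-fold higher in ZM11-kd2 than in ZM11-kd1 (0.94 ± 0.10, adjusted p = 6.75e-07). With the GC and length correction the fall in ZM11-kd1 became -0.86 on the log2 scale. TRIM22 and XAF1 had 3 to 6 and 0 to 2 reads per library and were not tested.

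In the ISG15 pathway, the modifier itself rose in both knockdowns while its protease fell. ISG15, a ubiquitin-like protein that is conjugated to new proteins, was measured at 45.9 and 45.7 CPM in control, 164 and 174 in ZM11-kd1 and 87.4 and 78.0 in ZM11-kd2. The 3 groups did not overlap, and ISG15 was 3.69-fold higher in ZM11-kd1 (edgeR adjusted p = 4.25e-12), 1.80-fold higher in ZM11-kd2 (adjusted p = 2.89e-08) and 2.04-fold lower in ZM11-kd2 than in ZM11-kd1 (log2 fold change -1.03 ± 0.06, adjusted p = 3.01e-09). With the GC and length correction the rise in ZM11-kd1 became 0.92 and the difference between the knockdowns -0.17, both still called. USP18, the protease that removes ISG15 and dampens receptor signalling, was measured at 15.1 and 13.4 CPM in control, 11.9 and 11.5 in ZM11-kd1 and 9.71 and 9.17 in ZM11-kd2, 1.51-fold lower in ZM11-kd2 (adjusted p = 0.000256) and 1.22-fold lower in ZM11-kd1 (adjusted p = 0.029), the latter lost without control replicate 1, without either ZM11-kd1 library and with the GC and length correction.

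HERC5, the main ligase that attaches ISG15, was highest in ZM11-kd2, at 1.71 and 2.03 CPM in control, 4.45 and 3.72 in ZM11-kd1 and 6.10 and 5.96 in ZM11-kd2. It was 2.19-fold higher in ZM11-kd1 (edgeR adjusted p = 0.00012) and 3.22-fold higher in ZM11-kd2 (adjusted p = 1.6e-06), and ZM11-kd2 exceeded ZM11-kd1 by 0.56 ± 0.17 on the log2 scale (adjusted p = 0.00933), a call that was lost without ZM11-kd1 replicate 2. HERC6, its neighbour on chromosome 4, was measured at 3.84 and 3.83 CPM in control, 6.18 and 5.94 in ZM11-kd1 and 2.60 and 3.21 in ZM11-kd2, and was called higher in ZM11-kd1 (0.66 ± 0.17, adjusted p = 0.0026, a call lost with total counts alone) and 2.09-fold lower in ZM11-kd2 than in ZM11-kd1. TRIM25, the ligase that modifies RIG-I, was measured at 53.5 and 50.9 CPM in control, 39.4 and 40.5 in ZM11-kd1 and 29.4 and 31.9 in ZM11-kd2. TRIM25 was called lower in both knockdowns, but with the GC and length correction its difference in ZM11-kd1 was 0.10 (adjusted p = 0.168).

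PARP9, PARP14 and DTX3L encode ADP-ribosyltransferases and a partner ubiquitin ligase that act on interferon signalling and DNA repair. DTX3L was measured at 60.7 and 61.0 CPM in control, 31.4 and 27.9 in ZM11-kd1 and 35.3 and 36.8 in ZM11-kd2, a fall of 2.05-fold (edgeR adjusted p = 6.91e-09) and 1.69-fold (adjusted p = 2.58e-07). PARP9, which starts next to DTX3L on the opposite strand and shares 139 exon bases with it, was measured at 54.0 and 51.7 CPM in control, 58.7 and 53.7 in ZM11-kd1 and 62.3 and 62.2 in ZM11-kd2. PARP9 was called higher in ZM11-kd2 by 0.24 ± 0.07 on the log2 scale (adjusted p = 0.0046), a call that was lost without control replicate 2 and with total counts alone, while in ZM11-kd1 its libraries overlapped with control and its log2 fold change was 0.58 (adjusted p = 2.79e-07) with the GC and length correction and -0.27 (adjusted p = 0.00301) with total counts alone. PARP14 was called lower in ZM11-kd2 (-0.30 ± 0.08, adjusted p = 0.00212). With the GC and length correction that call was lost (adjusted p = 0.279), and in ZM11-kd1 its log2 fold change went from -0.04 to 0.54 (adjusted p = 7.54e-07), while with total counts alone it was -0.40 (adjusted p = 0.000338).

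**Figure D3:**
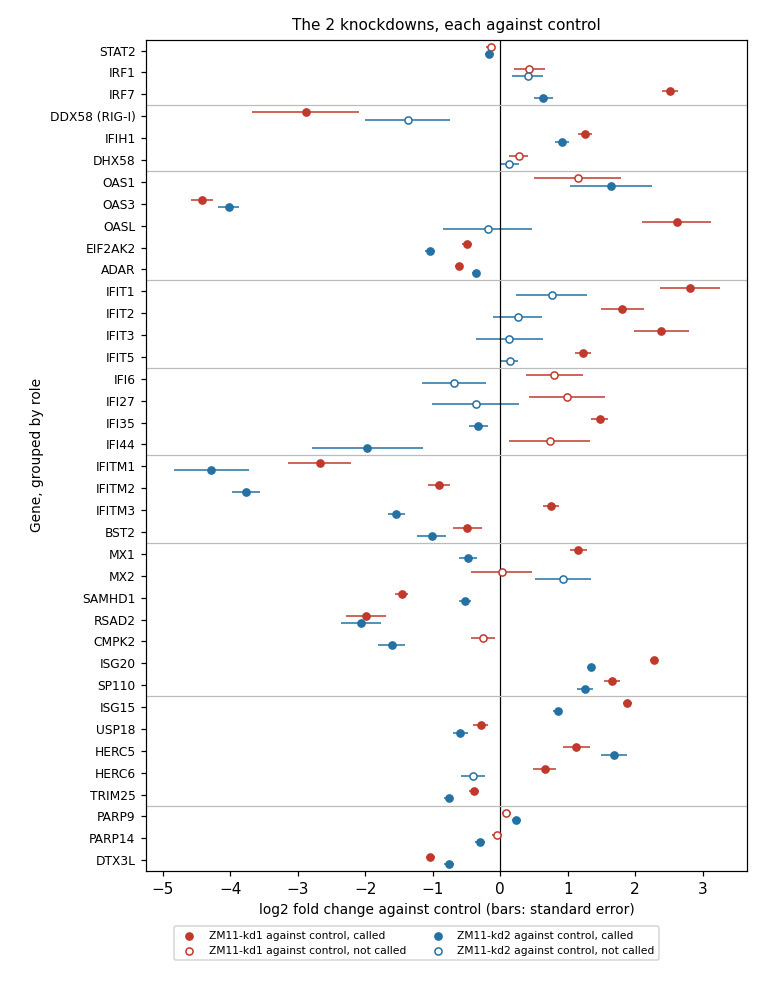
Log2 fold change against control (horizontal axis) of 38 tested genes, grouped by role, in ZM11-kd1 (red) and ZM11-kd2 (blue), with bars for the standard error; filled points were called and open points were not, and IFI44L is left out because it had no reads in ZM11-kd2. OAS3 lies below -4 in both, the IFIT genes lie right of 0 in ZM11-kd1 with open points in ZM11-kd2, and IFI35, IFITM3 and MX1 have filled points on both sides of 0.

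The comparison of ZM11-kd2 with ZM11-kd1 tests directly where the knockdowns part. Of the 39 genes, 23 (59.0%) were called lower in ZM11-kd2 than in ZM11-kd1, where 33.8% of all genes were, and 4 (10.3%), ADAR, SAMHD1, HERC5 and DTX3L, were called higher, where 34.9% of all genes were. With a log2 fold change of at least 1 also required, 16 genes were lower (41.0%, beside 13.7% of all genes) and none was higher (beside 12.0%). The libraries of the knockdowns did not overlap for 35 of the 39 genes, beside 83.1% of all genes. The median log2 fold change was -0.54 over the 39 genes and 0.02 over all genes.

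The calls of HERC5 and DTX3L were lost without ZM11-kd1 replicate 2, those of ADAR and DTX3L and the lower calls of IFI6 and IFI27 with the GC and length correction, and when libraries were scaled by total counts alone, 7 genes were called higher and 18 lower, beside 42.8% and 27.3% of all genes under that scaling, with the lower calls of IFIH1, IFI27, SP110, USP18 and PARP14 lost and a median of -0.36 over the 39 genes, where that of all genes was 0.20. Of the 18 genes with the longer string in the promoter, 12 (66.7%) were called lower and 2 (11.1%) higher, and of the 14 without it 6 (42.9%) were lower and 2 (14.3%) higher, beside the same 33.8% and 34.9% of all genes. The difference between the 18 and the 14 genes was not tested.

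**Figure D4:**
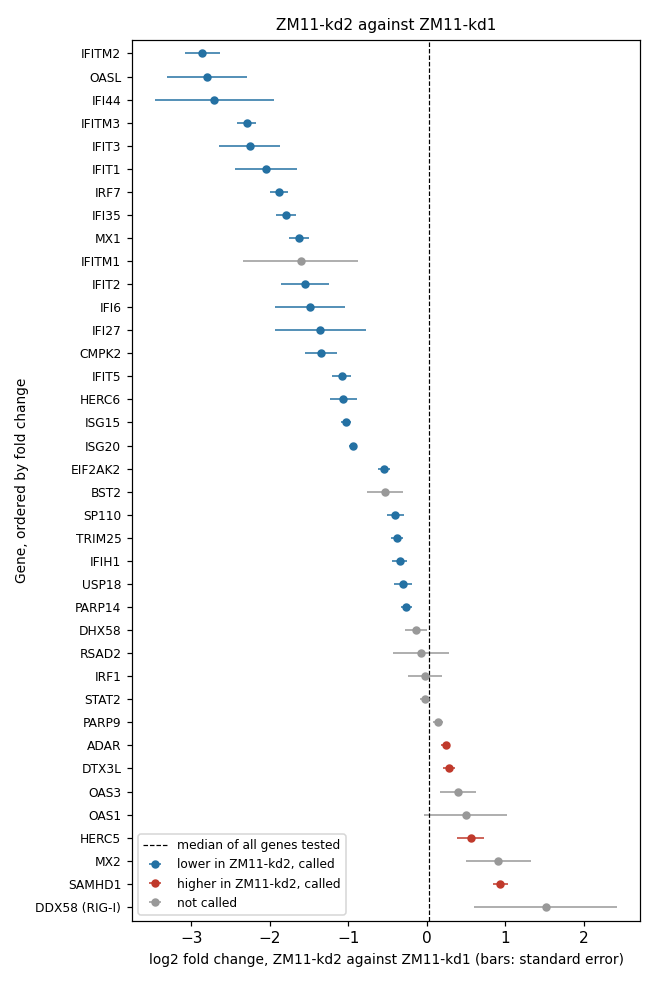
Log2 fold change of ZM11-kd2 against ZM11-kd1 (horizontal axis, bars for the standard error) for 38 tested genes in order of fold change, with the median of all genes tested as a dashed line and IFI44L left out. The genes called lower (blue) run from IFITM2 at -2.86 to PARP14 at -0.26, and the 4 called higher (red) reach 0.94 with SAMHD1.

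Between genes, levels are compared per kilobase of annotated exon. In control the highest were ISG15 at 52.8 CPM per kilobase, ADAR at 31.9 and DTX3L at 10.55, followed by IFITM3 at 7.95 and IFITM2 at 7.30. In ZM11-kd1 the order was ISG15 at 195, ISG20 at 23.9 and ADAR at 21.0 CPM per kilobase, and in ZM11-kd2 it was ISG15 at 95.4, ADAR at 24.7 and ISG20 at 12.45. IFITM2, the fifth highest in control, was at 0.531 CPM per kilobase in ZM11-kd2.

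Of 83 other genes of interferon signalling and response, 58 were tested. In ZM11-kd1, 16 of these (27.6%) were called higher and 20 (34.5%) lower, beside 38.2% and 39.8% of all genes. In ZM11-kd2, 19 (32.8%) were higher and 18 (31.0%) lower, beside 36.5% and 36.9%. Between the knockdowns, 21 (36.2%) were higher and 13 (22.4%) lower in ZM11-kd2, beside 34.9% and 33.8%. All of these shares but the 36.2% lay below those of all genes. Of the 10 interferon ligands on the list none had enough reads to be tested, and none exceeded 4 reads in any library. Among the receptors, IFNAR1 was measured at 84.9 and 87.8 CPM in control, 96.2 and 97.4 in ZM11-kd1 and 141 and 145 in ZM11-kd2, and IFNAR2 was listed at 0 in every library, with 14.7% of its exon bases shared with the read-through gene IFNAR2-IL10RB. TYK2, a receptor kinase, fell in both knockdowns (log2 fold changes of -0.94 ± 0.08 and -0.78 ± 0.08, edgeR adjusted p = 5.93e-08 and 5.8e-07). Of the 8 tested receptors and kinases, 2 were called higher and 2 lower in ZM11-kd1, beside 38.2% and 39.8% of all genes. For ZM11-kd2 the counts were 4 higher and 2 lower, beside 36.5% and 36.9%.

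Among the adaptors and factors downstream of the sensors, IRF3 was measured at 66.5 and 70.0 CPM in control, 140 and 151 in ZM11-kd1 and 81.5 and 71.4 in ZM11-kd2, with ZM11-kd2 lower than ZM11-kd1 by a log2 fold change of -0.93 ± 0.07 (edgeR adjusted p = 2.22e-08). MAVS fell in both knockdowns (-0.57 ± 0.07 and -0.30 ± 0.07, adjusted p = 2.46e-06 and 0.00107), as did IKBKE (-2.33 ± 0.32 and -2.59 ± 0.32, adjusted p = 8.45e-06 and 4.1e-06). TICAM1 (0.58 and 0.94), TRAF6 (0.40 and 0.69) and CGAS (2.41 and 2.20, on 2 to 15 reads per library) were called higher in both. Of the 10 tested sensing adaptors and kinases, 4 were higher and 4 lower in ZM11-kd1, beside 38.2% and 39.8% of all genes. For ZM11-kd2 the counts were 5 higher and 4 lower, beside 36.5% and 36.9%. SHFL, an inhibitor of ribosomal frameshifting, was high in ZM11-kd1 alone, at 2.10 and 3.12 CPM in control, 9.21 and 8.45 in ZM11-kd1 and 2.55 and 2.71 in ZM11-kd2. PNPT1, a mitochondrial RNA exonuclease, had the reverse order, at 92.1 and 97.1 CPM in control, 31.1 and 32.6 in ZM11-kd1 and 84.5 and 89.1 in ZM11-kd2. The genes named in this pathway were chosen after their values had been seen.

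The chemokine gene CXCL10 set ZM11-kd1 replicate 2 apart, with 28 reads there, none in ZM11-kd1 replicate 1 or in either control library, and 6 and 1 in ZM11-kd2. CXCL11 had 16 reads in that library, none in ZM11-kd1 replicate 1, 3 and 0 in control and 6 and 3 in ZM11-kd2. Without ZM11-kd1 replicate 2, 16 genes of the set were called higher and 11 lower in ZM11-kd1 against control, beside 34.5% and 35.5% of all genes in that fit, and 21 were lower and 3 higher in ZM11-kd2 against ZM11-kd1, beside 29.0% and 30.0%.

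Among the markers of other cell types, the summed level of the fibroblast list was highest in ZM11-kd1, through COL1A1. The 8 genes of the list summed to 36.2 and 33.1 CPM in control, 86.6 and 87.2 in ZM11-kd1 and 44.5 and 44.7 in ZM11-kd2, of which COL1A1 made up 23.9 and 23.8, 74.8 and 74.2, and 30.1 and 32.4, while FAP had 0 to 2, THY1 0 to 3 and PDGFRA 0 to 16 reads per library. The other fibroblast genes did not move together. COL1A2 had 2 and 1 reads in control and 23 and 18 in each knockdown and was called higher in both, COL3A1 was called lower in both (5.79-fold in ZM11-kd1, edgeR adjusted p = 0.0045, and 8.20-fold in ZM11-kd2, adjusted p = 0.00183), and DCN and LUM were not called in ZM11-kd1, while in ZM11-kd2 DCN was called lower and LUM higher.

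The 10 leukocyte genes summed to 5.78 to 8.51 CPM, with 1 to 4 of them at 0 in each library. CD3E, a defining T cell gene, was at 0 in all 6 libraries, but CD8A and CD4 had reads in every one. CD8A had 46 and 44 reads in control, 116 and 107 in ZM11-kd1 and 37 and 24 in ZM11-kd2, and was called higher in ZM11-kd1 (log2 fold change 1.26 ± 0.25, edgeR adjusted p = 0.000369) and lower in ZM11-kd2 (adjusted p = 0.035). CD4 had 43 to 70 reads per library and was called in neither. The monocyte gene CD14 had 16 and 27 reads in control, 43 and 35 in ZM11-kd1 and 117 and 92 in ZM11-kd2, and was called higher in both (1.75-fold, adjusted p = 0.0443, and 4.25-fold, adjusted p = 2.42e-05). LYZ was called lower in ZM11-kd2. The 6 endothelial genes summed to 0.204 to 0.354 CPM, with KDR at 0 in every library and no gene above 7 reads. The part of these markers in the values of the interferon-stimulated genes was not tested.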

How the data were processed

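RNA-seq was performed on 6 libraries of 22Rv1 cells, 2 each of control, ZM11-kd1 and ZM11-kd2. Per the labels and methods, poly(A) selection or ribosomal RNA removal preceded paired sequencing, reads were aligned to hg38 with STAR 2.7.9a, and the authors deposited a table of raw counts per gene symbol. HTSeq 0.13.5 is named in the submitters' processing notes, and the annotation and strand setting are not given in the sources used here. Groups follow the labels.

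The counts were fitted in R 4.3.3 with edgeR 4.0.16 (filterByExpr, TMM, quasi-likelihood test, 1 fit of the 3 groups with 3 residual degrees of freedom), and p-values were adjusted by Benjamini-Hochberg over 16510 genes. Normalised CPM are counts divided by the TMM-scaled library size, and the SE is the log2 fold change divided by the root of its F statistic. The steps were tested on simulated data in which few genes changed, as many up as down, with the same spread in every group and no GC or length trend. That simulation therefore cannot test the scaling of these libraries. Symbols were matched to GENCODE 44 by name (32852) or older name (252), and 2218 did not match. Promoters came from RefSeq, and 34 of the 43 genes had an entry. Where "GC and length correction" is written, a lowess trend (span 0.3) was removed per library.

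The genes of the set and the other lists were chosen with earlier results of these data known. Full statistics were planned for the transcription factors, the RIG-I-like sensors and the 14 genes with the largest called difference between the knockdowns (log2 of at least 1, 10 reads in every library of a group), and the other genes given in full were chosen after their values were seen. Alternatives were DESeq2 size factors, total counts alone, 2 other filters, DESeq2 1.42.0, a fold threshold of 1.5, the correction above, the groups compared alone, a replicate block and leaving out each library.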

Additional observations from a re-analysis of the deposited data

How the results depend on the processing

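Of the values of the 39 tested genes under these alternatives, 1548 kept their direction and their side of the threshold, 107 lost the call, 38 gained it and 30 changed sign. Scaling by total counts alone moved the median of all genes to -0.38 (ZM11-kd1), -0.20 (ZM11-kd2) and 0.20 (ZM11-kd2 against ZM11-kd1), and the shares of all genes called higher and lower to 27.8% and 51.0%, 30.1% and 43.7%, and 42.8% and 27.3%. A required fold change of over 1.5 (glmTreat) left 14 genes higher and 8 lower in ZM11-kd1 (24.4% and 26.5% of all genes), 5 higher and 11 lower in ZM11-kd2 (18.6% and 21.5%), and 1 higher and 16 lower in ZM11-kd2 than in ZM11-kd1 (15.8% and 16.9%), which follows from its stricter test. The count of genes higher in ZM11-kd2 than in ZM11-kd1 was 4 as reported, 7 with total counts alone and 2 with the GC and length correction, and the cause was not tested. DESeq2 called 12025, 11233 and 10454 genes where edgeR called 12882, 12118 and 11355. With each library left out in turn, 15 to 16 genes were higher and 10 to 14 lower in ZM11-kd1, 6 to 8 higher and 16 to 18 lower in ZM11-kd2, and 3 to 5 higher and 20 to 22 lower in ZM11-kd2 than in ZM11-kd1. A lone library was then assumed to vary like the other groups.

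Libraries with the same replicate number did not deviate together (correlations of 0.006, -0.026 and -0.044 across genes), and the fit with a replicate block called 12545, 11688 and 10978 genes. With the replicate block, BST2 in ZM11-kd1, STAT2, IFI35 and IFI44 in ZM11-kd2 and IFI27 between the knockdowns were not called.

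The signs that changed are given as log2 fold changes, and their causes were not tested. With the GC and length correction they were 0.224 (STAT2), -0.16 (DHX58), 0.173 (EIF2AK2), 0.098 (TRIM25) and 0.54 (PARP14) in ZM11-kd1, 0.047 (STAT2) in ZM11-kd2, and 0.246 (DHX58), 0.083 (BST2) and -0.172 (PARP9) between the knockdowns. With total counts alone they were -0.081 (DHX58), -0.334 (MX2) and -0.265 (PARP9) in ZM11-kd1, -0.037 (DHX58), -0.037 (IFIT3) and -0.029 (IFIT5) in ZM11-kd2, and 0.16 (STAT2), 0.159 (IRF1), 0.044 (DHX58) and 0.111 (RSAD2) between the knockdowns. With at least 10 reads in every library MX2 was at -0.023 in ZM11-kd1. With each library left out in turn, MX2 ranged from -0.463 to 0.726 and IFI6 from -0.097 to 1.331 in ZM11-kd1, OASL from -0.629 to 0.149, IFIT3 from -0.02 to 0.271 and IFI27 from -0.905 to 0.023 in ZM11-kd2, and STAT2 from -0.079 to 0.027, IRF1 from -0.132 to 0.073 and RSAD2 from -0.395 to 0.305 between the knockdowns. IFI44L gave no value between the knockdowns without ZM11-kd1 replicate 2, since no reads remained. DDX58, OAS1, OASL, IFIT1, IFIT3, IFI27, IFI44, IFI44L and IFITM1 had under 20 reads in both libraries of at least 1 group.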
